A study of Mus musculus with 2 samples.

Results

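The 32 genes described here encode proteins of the complement system, its regulators and its receptors, and they were read in single-cell transcriptomes of mouse dorsal skin. They were found by symbol among 27998 gene IDs and fall into 8 classical pathway genes, 2 lectin pathway genes, 4 alternative pathway genes, 4 terminal pathway genes, 9 regulators and 5 receptors. The cells came from wild-type C57BL/6 mice, female and 2 months old, whose skin was either control skin or had received imiquimod on its surface once a day for 5 days. Imiquimod is a Toll-like receptor agonist that brings on a psoriasis-like dermatitis. Both groups were cut from the back, digested with collagenase D and DNase1 and cleared of dead cells, and each was 1 library of 3′ transcript ends. How many animals a library pooled, and whether control skin got a vehicle, is not stated.

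Complement is a cascade of plasma and tissue proteins that tags surfaces, recruits leukocytes and can perforate membranes. The classical pathway starts when C1q, with its proteases C1r and C1s, binds an antibody or a damaged surface and cuts C4 and C2; the lectin pathway does the same through collectins and MASP proteases. In the alternative pathway, factor B and factor D amplify the cleavage of C3, and properdin holds the enzyme together. C5 to C9 then build the membrane attack complex, while soluble and membrane-bound inhibitors stop the cascade on the body's own cells. Liver supplies most circulating complement, and fibroblasts, macrophages and epithelia make it locally.

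Promoters of 4 members are printed because these genes were counted almost only in fibroblasts (C3 and C1ra) or mainly in macrophages (C1qb and C1qc). RefSeq promoter windows on GRCm38.p6, which run from 250 bases before to 50 bases after a gene's start, were found for 22 of the 32 members. Capitals mark matches, on either strand, to the core motifs TTGCNNAA (C/EBP), GGG and TCCC set 3 bases apart (NF-kB), TTCNNNGAA (STAT) and GAGGAA (PU.1).
C3 (chr17:57228087-57228386, minus strand): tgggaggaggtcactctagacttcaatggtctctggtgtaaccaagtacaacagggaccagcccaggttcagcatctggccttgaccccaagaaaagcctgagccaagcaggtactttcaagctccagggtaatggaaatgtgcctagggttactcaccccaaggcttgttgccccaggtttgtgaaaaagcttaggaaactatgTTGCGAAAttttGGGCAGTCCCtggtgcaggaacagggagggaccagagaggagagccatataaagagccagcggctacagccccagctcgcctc
C1ra (chr6:124512371-124512670, plus strand): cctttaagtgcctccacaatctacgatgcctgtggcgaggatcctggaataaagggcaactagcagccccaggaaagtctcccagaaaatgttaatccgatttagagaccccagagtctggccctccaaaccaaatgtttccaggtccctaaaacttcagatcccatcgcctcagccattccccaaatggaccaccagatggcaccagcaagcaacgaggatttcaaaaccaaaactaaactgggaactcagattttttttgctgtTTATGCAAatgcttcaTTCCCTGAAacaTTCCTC
C1qb (chr4:136886151-136886450, minus strand): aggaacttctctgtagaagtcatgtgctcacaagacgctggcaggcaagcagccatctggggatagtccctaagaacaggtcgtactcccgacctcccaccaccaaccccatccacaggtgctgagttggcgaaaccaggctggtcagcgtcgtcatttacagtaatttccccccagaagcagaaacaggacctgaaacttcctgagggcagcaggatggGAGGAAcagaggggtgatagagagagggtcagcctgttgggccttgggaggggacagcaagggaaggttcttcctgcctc
C1qc (chr4:136892865-136893164, minus strand): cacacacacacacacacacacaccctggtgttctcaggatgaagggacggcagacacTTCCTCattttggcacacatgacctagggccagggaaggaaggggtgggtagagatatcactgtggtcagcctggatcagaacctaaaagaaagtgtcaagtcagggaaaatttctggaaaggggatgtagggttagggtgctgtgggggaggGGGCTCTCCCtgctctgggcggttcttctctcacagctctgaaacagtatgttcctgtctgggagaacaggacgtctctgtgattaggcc

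The C3 window held a C/EBP core at -45 and an NF-kB core at -33 from the RefSeq start. The C1ra window held C/EBP, STAT and PU.1 cores, and these 3 began 16, 32 and 44 bases past the RefSeq start. C1qb had a PU.1 core at -30, and C1qc had an NF-kB core at -40 and a PU.1 core at -193. Among 32851 promoter windows of the same length, 10.8% held the C/EBP core, 5.55% the NF-kB core, 8.30% the STAT core and 28.3% the PU.1 core. Of the 22 members with a window, 4 held the C/EBP core (C1ra, C1rl, C1s1 and C3), 3 the NF-kB core (C1qc, C3 and Cd55), 3 the STAT core (C1ra, C7 and Vtn) and 6 the PU.1 core (C1qb, C1qc, C1ra, Cd59a, Cfp and Itgam). A match is a string of letters and not evidence of binding.

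Several members are neighbours in the genome. C1qb (chr4:136880129-136886187), C1qc (chr4:136889804-136893065) and C1qa (chr4:136895917-136898803) lie side by side on the minus strand of chromosome 4. C1rl (chr6:124493113-124510643), C1ra (chr6:124512405-124523443) and C1s1 (chr6:124530345-124542359) are adjacent on chromosome 6. C4b (chr17:34728380-34743882), Cfb (chr17:34856374-34862518) and C2 (chr17:34862604-34898265) lie in 1 stretch of chromosome 17. Positions are GRCm38, from the GENCODE M21 annotation. For C1ra and C1qc these gene bounds differ from the RefSeq starts against which the motif offsets were counted.

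The control library held 10297 cells with at least 200 genes and at most 10% mitochondrial UMIs (unique molecular identifiers, which count transcripts), and the imiquimod library held 8499. The median depth was 9596 and 12650 UMIs per cell, and 20 cell barcodes occurred in both libraries. Cells were assigned to lineages by marker genes, none of which is a complement gene, and 9755 control and 8012 imiquimod cells received a lineage. Every marker found was at least 2-fold higher in its own lineage than elsewhere except 1 of 7 Schwann cell markers. Because the same markers assigned the cells, this outcome was largely built in and does not test the lineages. Of the T and NK cell markers, 3 of 12 were not found under their symbols. The gates held 7140 control and 3773 imiquimod fibroblasts, 1530 and 2097 keratinocytes, 72 and 409 macrophages and monocytes, and 102 and 126 dendritic cells. They also held 249 and 429 T and NK cells, 43 and 143 blood endothelial cells, 39 and 144 lymphatic endothelial cells, 313 and 171 pericytes and smooth muscle cells, 155 and 163 Schwann cells, and 37 and 60 muscle cells. Neutrophils (6 and 274 cells), basophils (3 and 52), mast cells (29 and 32) and melanocytes (26 and 36) had under 30 control cells and were not compared between libraries.

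A level is given as CPM, the UMIs of a gene per 1000000 UMIs of the lineage in 1 library, with an exact 95% Poisson interval in parentheses. A ratio is imiquimod over control with an exact 95% interval. A member with at least 20 UMIs in a lineage is called higher or lower when the ratio is at least 2-fold and its interval excludes equality. With 1 library a group no test of the treatment exists, and all intervals cover counting error only. Levels are compared between lineages and libraries and not between genes, because the counts are not scaled by transcript length. Of the fibroblasts, 4969 control and 2784 imiquimod cells lay in 6 clusters with at least 30 cells of each library, while 1 cluster held 2034 control and 5 imiquimod cells and another 5 and 947. Of the keratinocytes, 620 and 1282 cells lay in 3 such shared clusters. State and library cannot be told apart for cells outside the shared clusters.

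Fibroblasts, the matrix-producing cells of the dermis, held nearly all UMIs of most soluble components, and macrophages held those of C1q. In control skin fibroblasts had 96.7% of all C3 UMIs, 96.5% of C1ra, 94.0% of C2, 98.1% of C7 and 96.4% of Serping1. The macrophage and monocyte gate, 0.699% of control cells, had 87.3% of C1qa, 89.5% of C1qb and 91.8% of C1qc. These divisions were much the same in imiquimod skin, with 95.4% of C3 in fibroblasts and 83.9% of C1qa in macrophages and monocytes. Shares count the cells recovered by digestion and are not shares of the intact tissue.

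**Figure D1:**
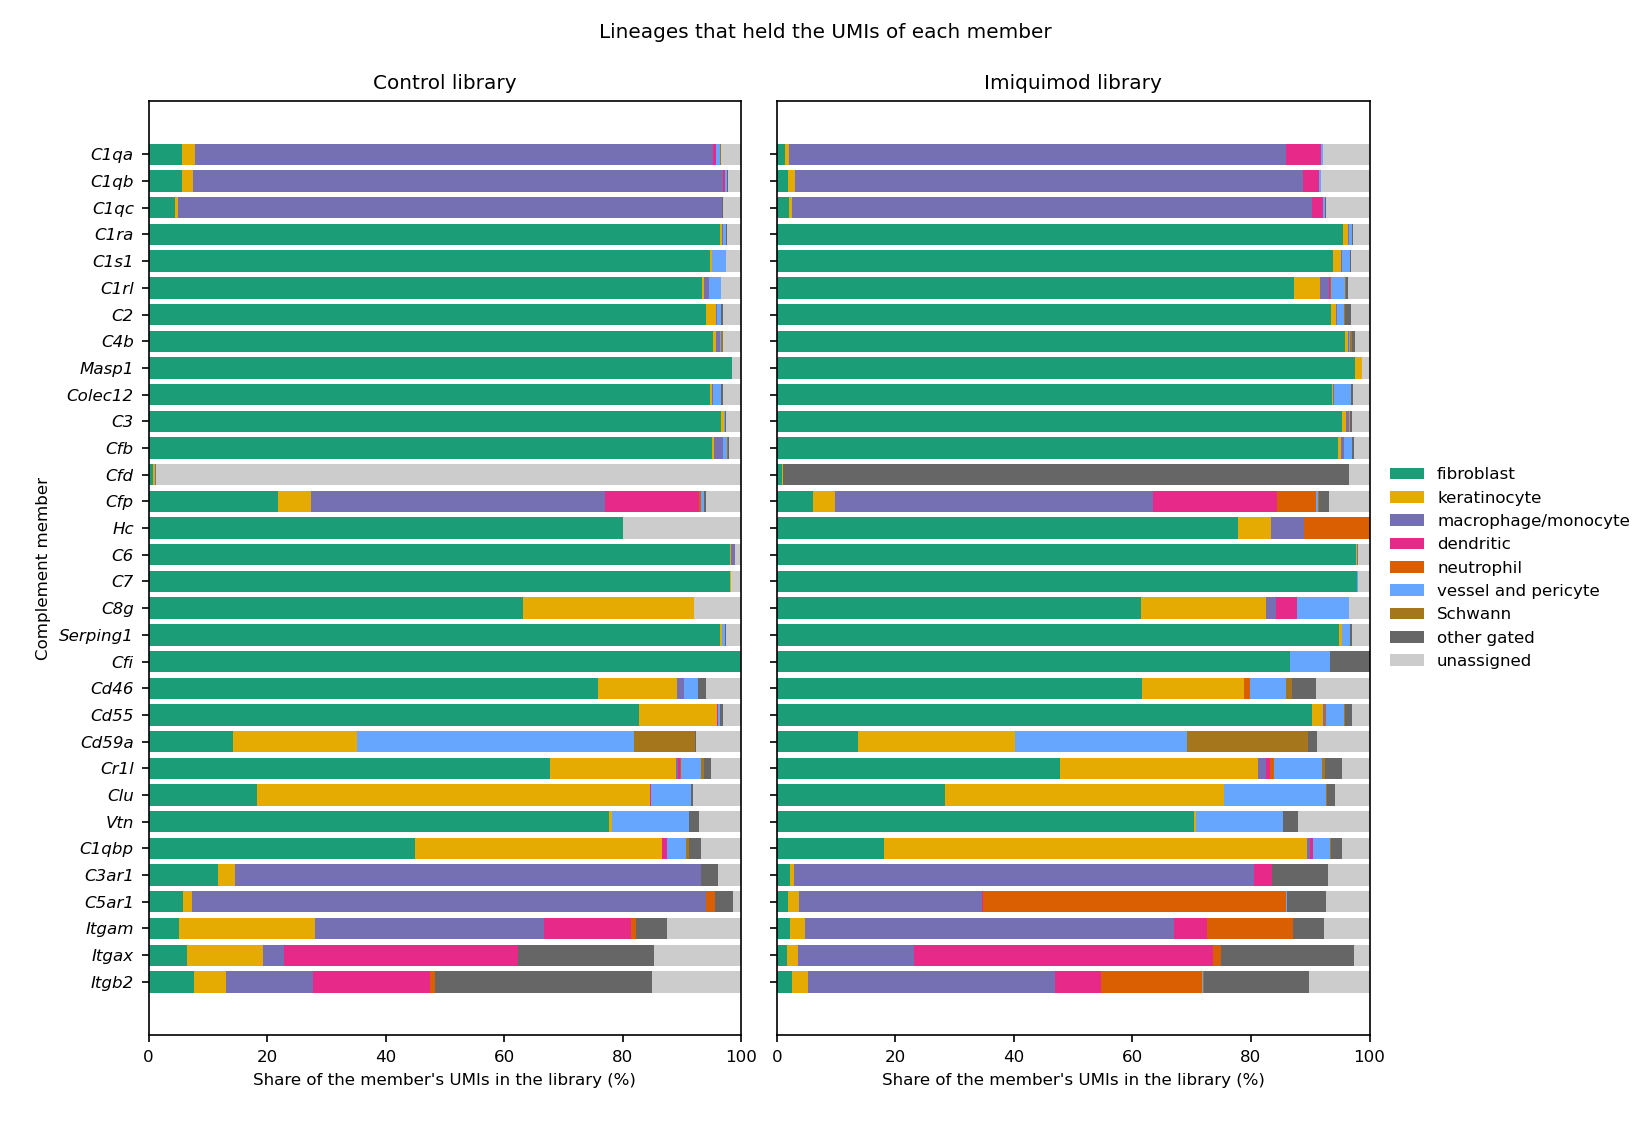
Share of each member's UMIs (x axis, percent) that came from each lineage in the control library (left) and the imiquimod library (right), with 1 bar per gene. Fibroblasts filled over 90% of the bar for C3, C1ra, C2, C7 and Serping1 in both libraries, and the Cfd bar was filled by cells outside the compared lineages.

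Ranking lineages by CPM gave a different picture, because it does not weigh a lineage by its number of cells. Among 30 members with at least 20 UMIs in a library, the highest level was in macrophages and monocytes for 13 and in fibroblasts for 9 in control skin. In imiquimod skin those numbers were 5 and 13, but there 14 lineages were ranked against 10 in control, and C5ar1 and Itgb2 were highest in neutrophils and C3ar1 in basophils, which control skin could not rank. The members that changed place included C4b, Cfb and C6, whose highest level was in macrophages in control and in fibroblasts in imiquimod skin. For 5 of the 13 (C1rl, Cfb, Cfd, C6 and Itgb2) the interval in macrophages overlapped that of the next lineage in control skin, and Cfd rested on 1 UMI and C1rl on 4, so their place is not settled by these counts. The same holds for members highest in fibroblasts whose interval overlapped the next: Colec12 in control skin, and C1rl, C2 and Cfd in imiquimod skin. Fibroblast Cfd in imiquimod skin was 0.165 CPM, on 9 UMIs.

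**Figure D2:**
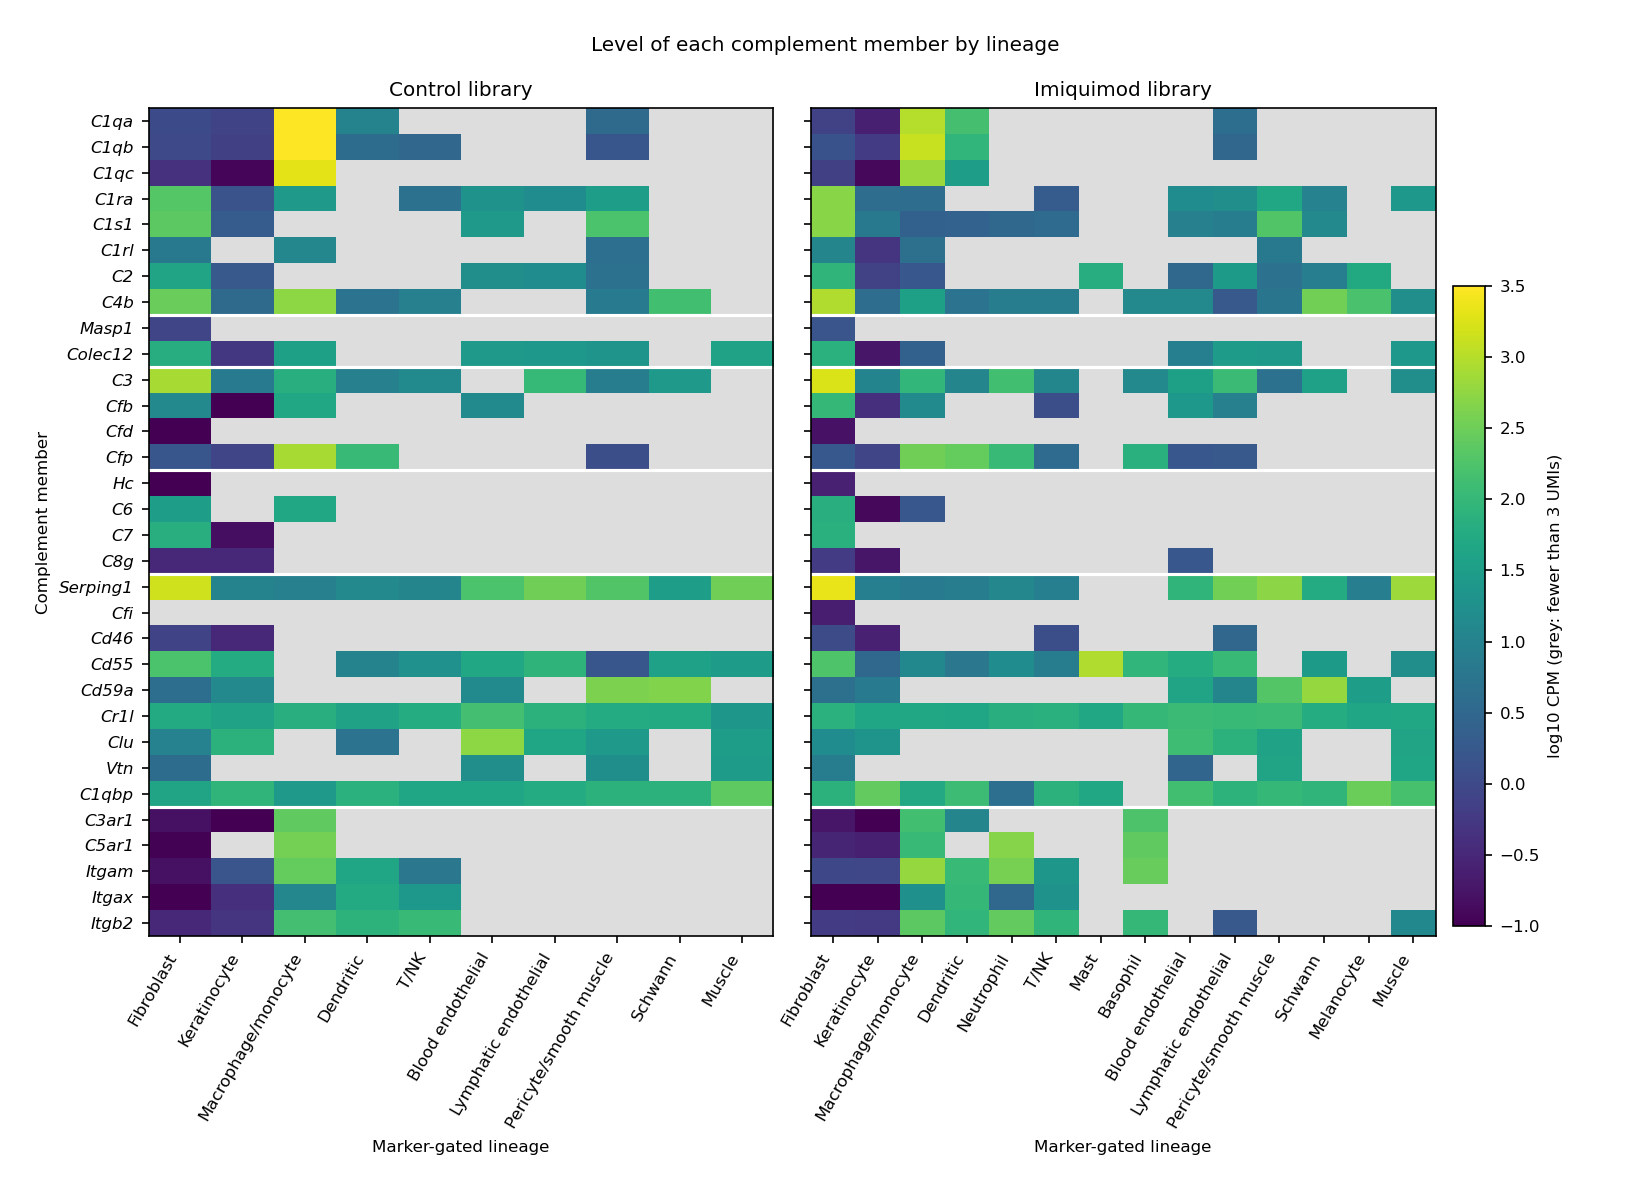
Level of each member (rows, log10 CPM as colour, grey for fewer than 3 UMIs) in each lineage with at least 30 cells (columns) in the control and imiquimod libraries. White lines divide classical, lectin, alternative, terminal, regulator and receptor genes; C1qa, C1qb and C1qc are bright in the macrophage and monocyte column, and C3, C4b and Serping1 in the fibroblast column.

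Between the libraries, the complement genes called in fibroblasts were higher in imiquimod skin, and those called in macrophages and monocytes, except Itgam, were lower. In fibroblasts 12 of 28 measured members were higher and 0 lower, against 11.2% and 4.67% of the 14859 genes measured there. The median log2 ratio was 0.78 for the members and 0.26 for all genes. Itgam, Itgb2 and C5ar1 were 3 of those 12, and their fibroblast levels were near what free RNA (transcripts released by other cells) could give. The other 9 (C1ra, C1s1, C2, C4b, C3, Cfb, C6, C8g and Vtn) stood at 3 or more times that level, as did 10.3% of all genes by the same rule. When libraries were scaled by median-of-ratios size factors, which removed a shift of 0.29 in log2, 3 fibroblast members were called higher (C4b, Cfb and Itgam), against 6.93% of all genes. In the UMIs of the 6 shared fibroblast clusters pooled, 4 of 25 measured members were higher (C4b, Cfb, Vtn and Itgam) and 1 lower (C6), against 11.9% and 2.73% of all genes. Cluster by cluster, C4b was called higher in 5 of 6, Cfb in 4 of 5, C3 in 3 of 6 and Vtn in 0 of 3, and Itgam had too few UMIs in each.

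In macrophages and monocytes 1 of 17 measured members was higher and 8 were lower, where 6.26% and 10.8% of all 7780 genes were. The member that was higher was Itgam, and the 8 were C1qa, C1qb, C1qc, C4b, Cfb, Cfp, C6 and C5ar1. Size factors, which removed a shift of -0.27 in log2, added C1qbp and Itgb2 to the higher ones and kept the 8 lower, against 11.1% and 6.93% of all genes. In keratinocytes 5 of 21 members were higher and 5 lower, beside 11.8% and 10.5% of all genes. Of those 10, C1rl and C1qbp (higher) and Cd55 and Clu (lower) stood at 3 or more times the free RNA level in the library where they were higher, as did 11.3% and 9.82% of all genes. C1ra, C1s1, Cfb, C1qa, C2 and Colec12 did not. Dendritic cells had 5 of 10 members higher, against 7.09% of all genes, and 0 lower, against 4.46%. Blood endothelium had 3 of 12 higher and 3 lower (12.2% and 7.17% of all genes). Pericytes and smooth muscle had 2 of 13 higher and 1 lower (6.31% and 6.95%). T and NK cells had 1 of 9 higher and 1 lower (8.08% and 6.26%), and Schwann cells 1 of 7 higher and 0 lower (3.49% and 2.47%). In lymphatic endothelium 0 of 10 members were called in either direction (4.16% and 2.14%). In muscle cells 1 of 2, Serping1, was higher (5.43% of all genes), and 0 were lower (4.1%).

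**Figure D3:**
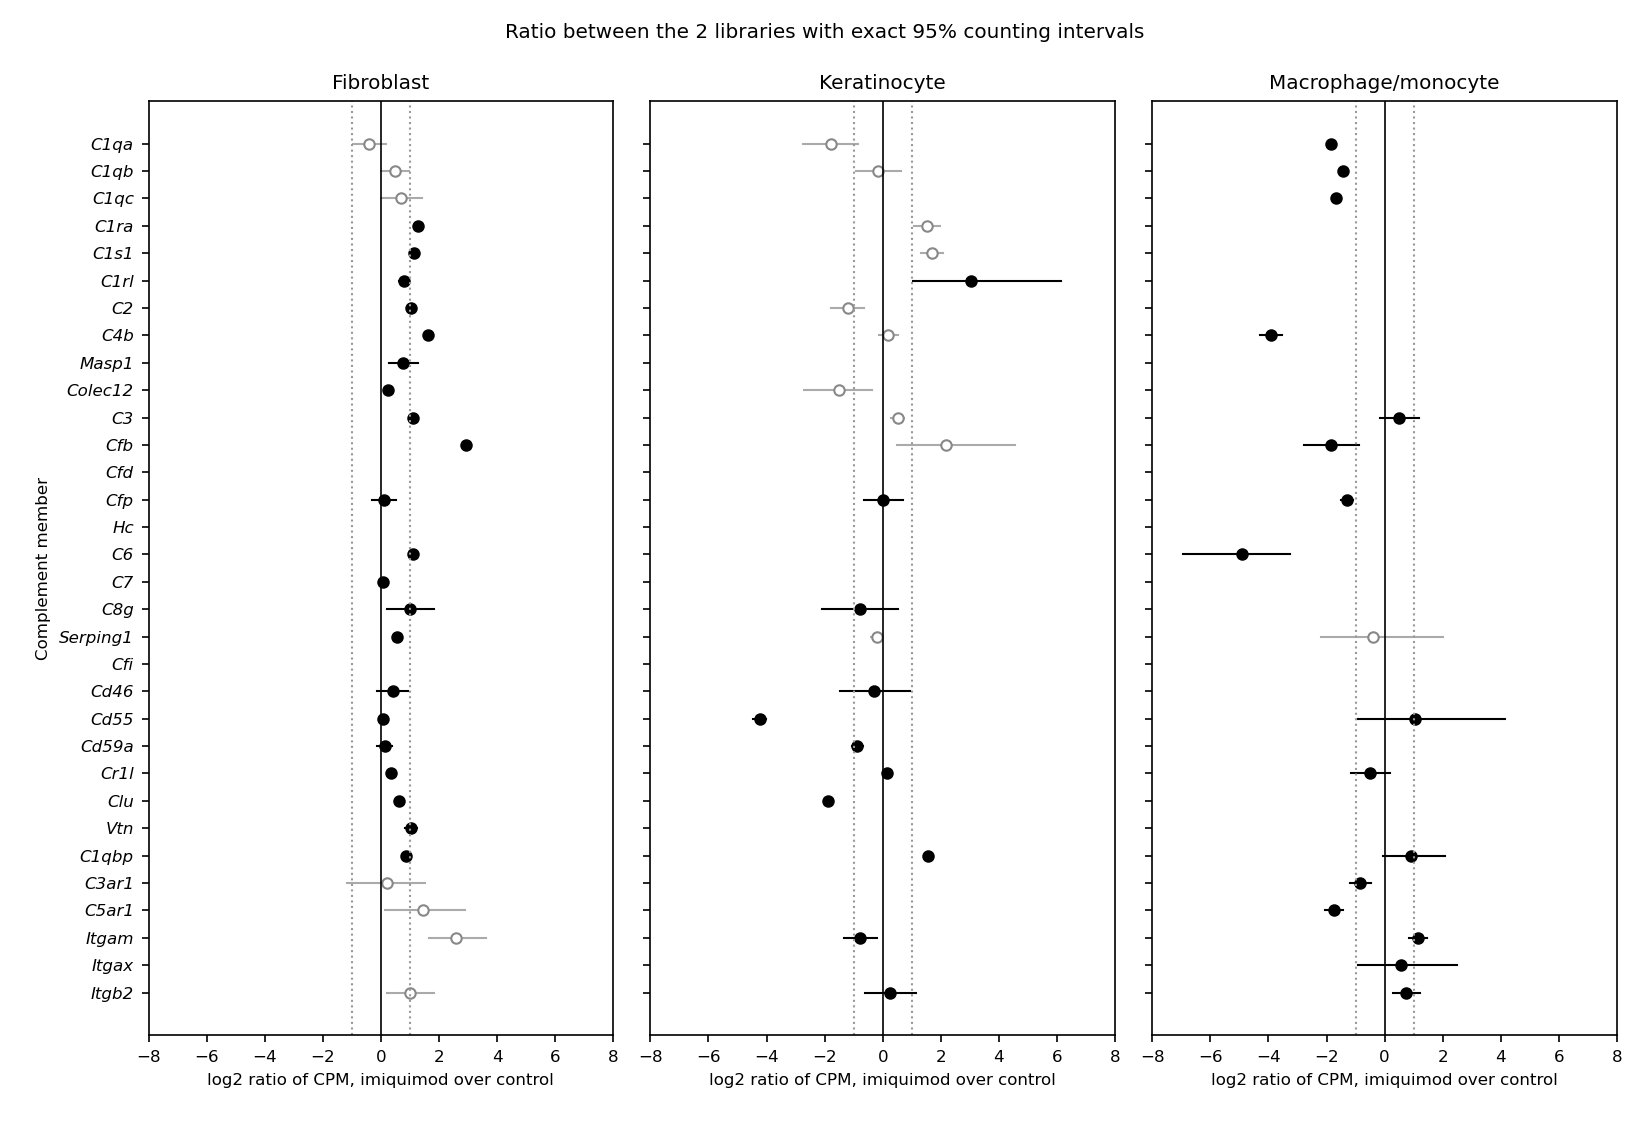
Log2 ratio of CPM, imiquimod over control (x axis), of each measured member in fibroblasts, keratinocytes, and macrophages and monocytes, with exact 95% counting intervals as bars and dotted lines at 2-fold. Filled points had at least 3 times the free RNA level in the higher library and open grey points did not; Cfb stood farthest right in fibroblasts, Cd55 farthest left in keratinocytes, and C4b and C6 farthest left in macrophages and monocytes.

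C1q, the recognition molecule of the classical pathway, is assembled from the A, B and C chains encoded by C1qa, C1qb and C1qc. In macrophages and monocytes C1qa measured 3591 CPM (3388 to 3802) in control and 996 CPM (957 to 1037) in imiquimod skin. C1qb measured 3545 CPM (3344 to 3755) in control and 1324 CPM (1278 to 1370.1) in imiquimod skin, and C1qc 2094 CPM (1939.8 to 2257) in control and 660.4 CPM (629 to 693) in imiquimod skin. All 3 chains were thus lower per UMI of the gate in imiquimod skin, by 3.60-fold (3.36 to 3.87) for C1qa, 2.68-fold (2.50 to 2.86) for C1qb and 3.17-fold (2.90 to 3.47) for C1qc.

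The macrophage and monocyte gate did not hold the same cells in the 2 libraries. By markers of resident macrophages (Mrc1, Cd163, Folr2, F13a1, Cbr2 and Lyve1) and of monocytes (Ly6c2, Plac8, Ccr2, Chil3 and Vcan), 55 of 72 control cells were resident and 7 were monocytes. In imiquimod skin 40 of 409 were resident and 225 were monocytes, and the remainder scored for neither alone. Within the resident gate C1qa measured 4589 CPM in control and 4190.4 CPM in imiquimod skin. The C1qb values were 4474 and 5043 CPM, and those of C1qc 2674 and 2904 CPM. None of the 3 chains was called higher or lower there, with log2 ratios of -0.13, 0.17 and 0.12. The imiquimod monocytes held 86.0 CPM of C1qa, 129.6 CPM of C1qb and 33.1 CPM of C1qc. Clusters in place of the gate, which pooled these cells with dendritic cells, also gave no call for C1qa, C1qb or C1qc (log2 -0.45, -0.04 and -0.32).

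Transcripts of all 3 chains were seen together in 75.0% of control and 19.1% of imiquimod cells of the gate. In the resident gate those shares were 92.7% and 80.0%, and in imiquimod monocytes 3.56%. For comparison, C1qa was seen in 0.402% of control and 0.233% of imiquimod T and NK cells, which do not make C1q. The median depth was 4759 and 5754 UMIs in the macrophage and monocyte gate and 3677 and 4787 UMIs in T and NK cells. Cells with at least 2000 UMIs were also thinned to 2000 UMIs each, and shallower cells were left out. Among these, C1qa was seen in 80.3% of control and 23.9% of imiquimod macrophages and monocytes.

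**Figure D4:**
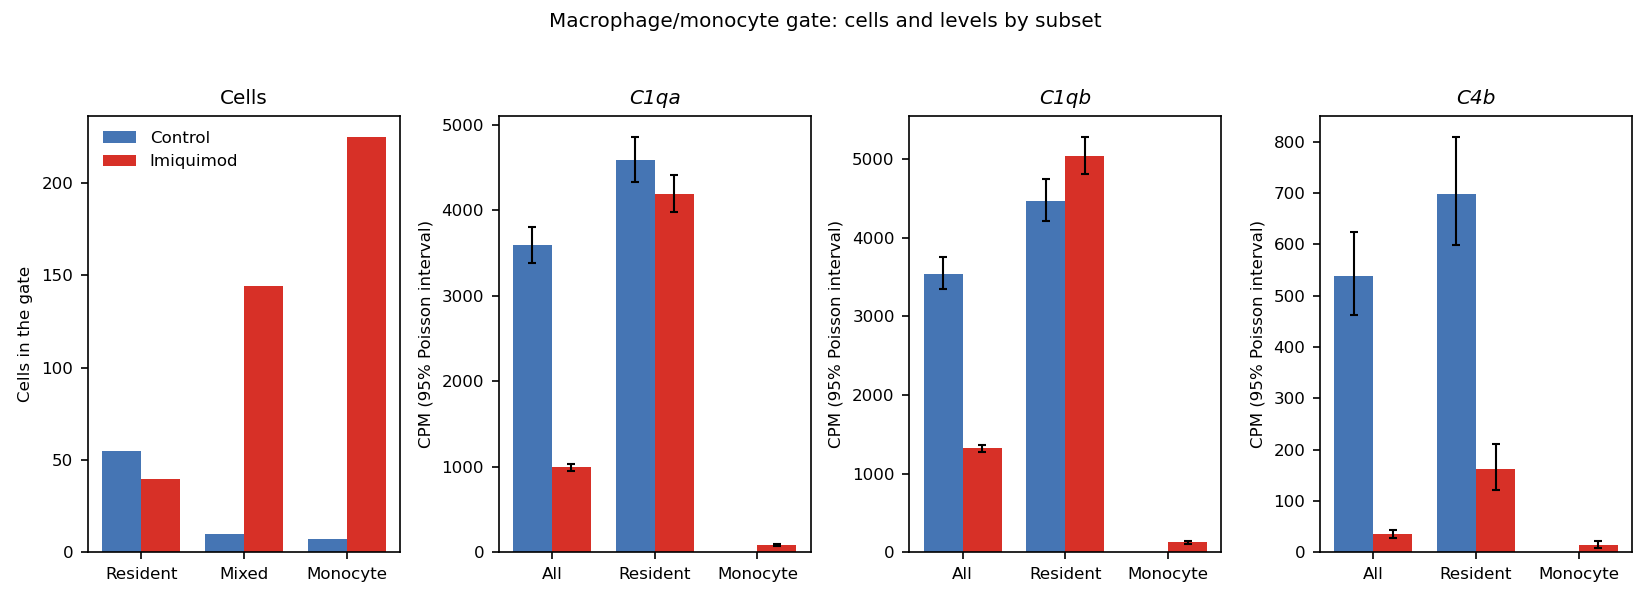
Cells per subset of the macrophage and monocyte gate (left, number of cells) and CPM of C1qa, C1qb and C4b with 95% Poisson intervals (bars start at 0) in the whole gate, resident macrophages and monocytes. Control monocytes (7 cells) have no bar; the resident bars of C1qa and C1qb are of similar height in both libraries, while the C4b bar falls from 698 to 162 CPM.

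Dendritic cells, the antigen-presenting cells of skin, showed C1q transcripts mainly after imiquimod. C1qa had 8 UMIs in the gate of 102 control cells, all in 1 cell, and 171 UMIs in the gate of 126 imiquimod cells. These are 10.5 and 147 CPM, 14.1-fold (6.99 to 33.2) higher. How many of the 126 imiquimod cells held C1qa is not given here. C1qb went from 3.93 to 90.6 CPM and was 23.1-fold (7.68 to 114) higher. C1qc had 0 UMIs in control and 37 in imiquimod dendritic cells, at least 8.13-fold higher against a floor of 3 counts. These levels lie well under those of the resident macrophages. Cells with Langerhans markers numbered 4 in control and 25 in imiquimod skin among the gated dendritic cells. Whether cells between the macrophage and dendritic gates carry this signal was not tested.

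The proteases C1r (C1ra) and C1s (C1s1), which C1q activates, were fibroblast transcripts. C1ra measured 204 CPM (201 to 207) in control and 494 CPM (488 to 499.5) in imiquimod skin and was 2.42-fold (2.37 to 2.47) higher. C1s1 measured 232 CPM (228 to 235) in control and 505 CPM (499 to 511) in imiquimod skin and was 2.18-fold (2.14 to 2.22) higher. Both calls were lost with size factors (log2 0.99 and 0.84) and in the shared fibroblast clusters (0.75 and 0.56). Pericytes and smooth muscle were the next highest site of C1s1, at 171 CPM in control and 192 CPM in imiquimod skin, and were not called. C1s1 was lower in blood endothelium (27.6 CPM in control and 9.25 CPM in imiquimod skin), on 10 and 22 UMIs, a call lost with clusters in place of the gate and without the top cell of each library. The related C1rl, a C1r-like protease, measured 6.59 and 11.4 CPM in fibroblasts, below the 2-fold limit. Keratinocytes held 2 control and 31 imiquimod UMIs of C1rl, called higher, and that call was lost with clusters (log2 0.09).

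C4 and C2 are the substrates of C1s and together form the classical C3 convertase. C4b, the gene of mouse C4, measured 292 CPM (288 to 296) in control and 903 CPM (895 to 911) in imiquimod skin in fibroblasts and was 3.09-fold (3.05 to 3.14) higher. Of the 6 fibroblast clusters shared by the libraries, 5 were called higher for C4b and the lowest log2 ratio was 0.14. In macrophages and monocytes C4b went the other way, from 539 to 35.6 CPM, 15.1-fold (11.6 to 19.8) lower. That held inside the resident gate, from 698 to 162 CPM, 4.31-fold (3.18 to 5.94) lower. Schwann cells, the glia of skin nerves, held C4b at 139 CPM in control and 352 CPM in imiquimod skin, 2.54-fold (1.93 to 3.38) higher, a call lost when clusters replaced the gate (log2 0.60). C2 measured 43.3 CPM in control and 89.7 CPM in imiquimod skin in fibroblasts, 2.07-fold (1.98 to 2.17) higher, and lost its call with size factors (0.76) and in shared clusters (0.50). Reads of C4b, C1ra and C1s1 may be shared with the paralogs C4a, C1rb and C1s2, and how the authors' counting treated such reads is not stated.

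The lectin pathway was sparsely measured. Masp1, whose protein is a protease of mannose-binding lectin complexes, had 66 control and 82 imiquimod UMIs in fibroblasts, which was 98.5% and 97.6% of all its UMIs. Its level was 0.882 and 1.51 CPM, not called. Colec12, a collectin that spans the membrane and acts as a scavenger receptor, measured 64.1 CPM in control and 75.5 CPM in imiquimod skin in fibroblasts, also not called. It was present in pericytes (21.2 and 26.1 CPM) and lymphatic endothelium (25.1 and 29.8 CPM). In blood endothelium it was lower, at 27.6 and 8.83 CPM on 10 and 21 UMIs, a call lost without the top cell of each library.

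C3 is the component on which all 3 pathways converge. In fibroblasts it measured 813 CPM (807 to 819.6) in control and 1750.1 CPM (1739 to 1761) in imiquimod skin, 2.15-fold (2.13 to 2.17) higher. Fibroblasts marked by Pi16 and Dpp4 held C3 at 1770.2 CPM in control and 4150.3 CPM in imiquimod skin, 2.34-fold (2.31 to 2.38) higher. Gdf10-marked fibroblasts had 1845 CPM in control and 2046 CPM in imiquimod skin. Dermal sheath cells around hair follicles held less, at 71.3 and 58.6 CPM. Within shared clusters pooled, the C3 call was lost (log2 0.80), as it was with size factors (0.82), although the ratio was above 1 in all 6 clusters and called higher in 3.

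Among the other lineages with at least 30 control cells, C3 was highest in lymphatic endothelium, at 103 CPM, and measured 117 CPM after imiquimod. Of its 33 control UMIs there, 18 came from 1 cell, and without the top cell of each library it was called higher (log2 1.23). Imiquimod neutrophils, the phagocytes that fill psoriasis-like lesions, held C3 at 139 CPM (115 to 165), and imiquimod monocytes at 133 CPM. Resident macrophages held less, 39.7 CPM in control and 31.8 CPM in imiquimod skin. Blood endothelial C3 rested on 1 control UMI and 85 imiquimod UMIs, 40 of them in 1 cell, and was called higher. Keratinocyte C3 (7.56 and 10.8 CPM) was below the 14.9 and 12.3 CPM that free RNA could give.

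Factor B (Cfb), which pairs with C3b to form the alternative convertase, had the largest ratio among the members that stood above free RNA in fibroblasts. It measured 13.04 CPM (12.2 to 13.9) in control and 98.7 CPM (96.1 to 101) in imiquimod skin, 7.57-fold (7.07 to 8.12) higher. All 5 compared fibroblast subsets in which it was measured were called higher, from 2.62-fold (2.03 to 3.42) in Gdf10-marked cells to 21.1-fold (18.1 to 24.7) in cells marked for no single subset. Size factors (log2 2.63) and the shared clusters (2.32) kept the call. In macrophages and monocytes Cfb was lower, 49.0 CPM in control and 13.5 CPM in imiquimod skin, on 16 and 33 UMIs, and the call was lost within the resident gate (log2 -0.65) and with clusters (-0.23). Blood endothelium held it at 13.8 and 25.2 CPM, not called.

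Properdin (Cfp) is the stabiliser of the alternative convertase and was a transcript of myeloid cells. Macrophages and monocytes measured 823 CPM in control and 335 CPM in imiquimod skin, 2.46-fold (2.14 to 2.83) lower, and resident macrophages alone 1004 and 499.96 CPM, 2.01-fold (1.65 to 2.45) lower. Dendritic cells measured 113 CPM in control and 277 CPM in imiquimod skin, 2.46-fold (1.93 to 3.16) higher. Neutrophils and basophils of imiquimod skin held Cfp at 109.8 and 70.9 CPM. The macrophage call was lost when clusters, which pool macrophages and dendritic cells, replaced the gate (log2 0.08).

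Factor D (Cfd, adipsin), the protease that cuts factor B, was counted almost wholly in 3 cells. They held 969 and 35 of the 1014 UMIs in imiquimod skin and 751 of the 760 in control skin. All 3 also carried Adipoq, Fabp4, Cidec and Plin1, markers of adipocytes, and only 1 passed the adipocyte gate. All other cells held 9 control and 10 imiquimod UMIs, so no comparison of Cfd between libraries was made.

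Of the terminal components, C6 and C7, which bind C5b in turn to start the membrane attack complex, were nearly confined to fibroblasts, with 98.1% and 98.1% of their control UMIs. C6 measured 32.4 CPM (31.2 to 33.7) in control and 70.4 CPM (68.2 to 72.7) in imiquimod skin, 2.17-fold (2.06 to 2.29) higher in the whole gate, a call lost with size factors (log2 0.83). Its distribution was uneven, with 7.11% of control and 16.9% of imiquimod fibroblasts holding a C6 UMI. Fibroblasts marked by Saa3 and Lcn2, which numbered 2 in control and 879 in imiquimod skin, held C6 at 146 CPM. In 2 marked subsets present in both libraries C6 was lower after imiquimod, from 32.5 to 7.65 CPM in Pi16-marked cells and from 54.8 to 13.7 CPM in Gdf10-marked cells. Cells marked for no single subset had 35.7 and 59.1 CPM, not called. In the pooled shared clusters C6 was likewise lower (log2 -1.79), the reverse of the whole gate, while cluster by cluster 1 of 5 was called higher and 0 lower. The cluster richest in C6, at 133 and 122 CPM, held 1172 control and 41 imiquimod cells.

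C7 measured 68.0 CPM in control and 71.9 CPM in imiquimod skin in fibroblasts, not called, and 149.8 and 120.1 CPM in Gdf10-marked cells. C8g, a chain of C8, had 24 and 35 fibroblast UMIs and a ratio of 2.01-fold (1.16 to 3.52), a call that was lost in 6 of the 10 alternatives run. Hc, the gene of C5, had 5 control and 18 imiquimod UMIs in all cells, too few for a comparison in any lineage. In macrophages C6 went from 16 UMIs to 4, 29.9-fold (9.65 to 123) lower.

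**Figure D5:**
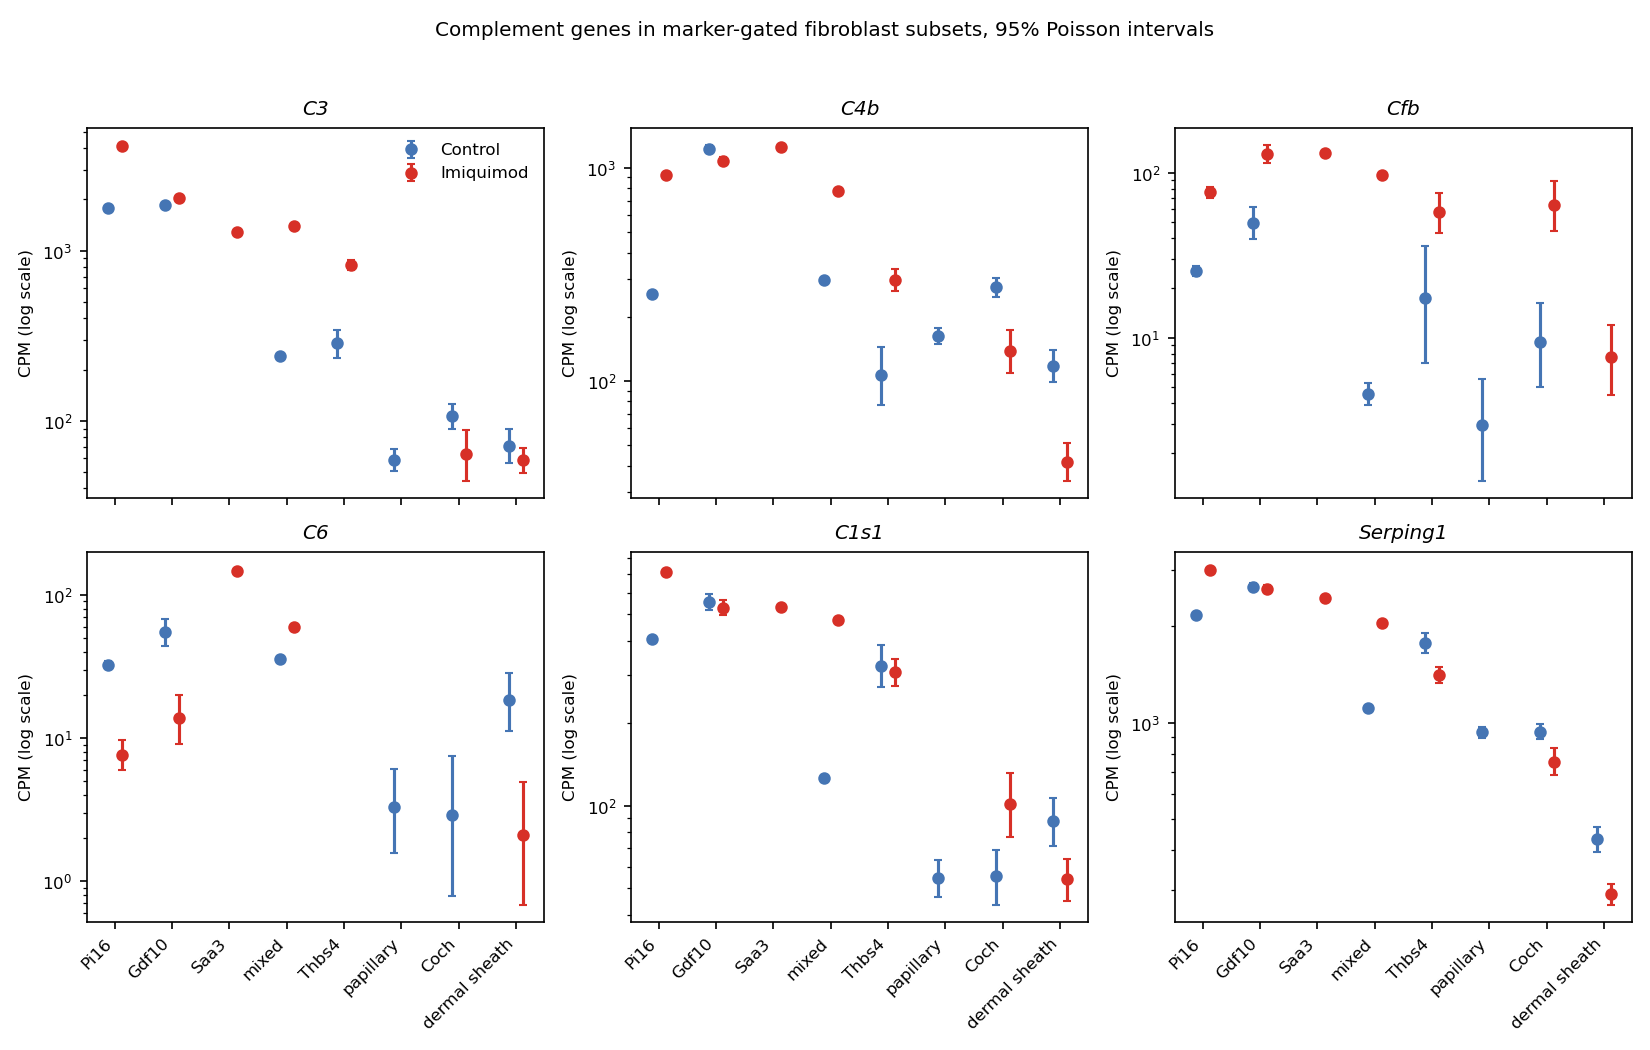
CPM (y axis, log scale) of C3, C4b, Cfb, C6, C1s1 and Serping1 in fibroblast subsets gated by their own markers (x axis), with 95% Poisson intervals, for subsets with at least 30 cells in a library and at least 3 UMIs. Cfb is higher in imiquimod skin in each subset shown for both libraries, C6 is lower in Pi16- and Gdf10-marked cells, and the Saa3 subset appears in the imiquimod library alone.

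Serping1 encodes the C1 inhibitor, a soluble regulator that blocks C1r and C1s. It measured 1503 CPM in control and 2227 CPM in imiquimod skin in fibroblasts, a ratio of 1.48-fold (1.47 to 1.49) that stayed under the 2-fold limit. Pericytes and smooth muscle measured 188 CPM in control and 515 CPM in imiquimod skin, 2.74-fold (2.46 to 3.07) higher, and muscle cells 337 CPM in control and 681 CPM in imiquimod skin, 2.02-fold (1.52 to 2.72) higher, a call lost with size factors (log2 0.995). Lymphatic endothelium held it at 338 and 344 CPM. Vtn (vitronectin), which stops insertion of the attack complex, was higher in fibroblasts (3.91 CPM in control and 8.01 CPM in imiquimod skin) and in pericytes (17.5 CPM in control and 42.1 CPM in imiquimod skin). The fibroblast call was lost with size factors (log2 0.75). Gdf10-marked fibroblasts held Vtn at 36.3 and 37.6 CPM, not called, above the other fibroblast subsets measured, and Pi16-marked cells, from 3.70 to 9.21 CPM, were called higher. Cfi, the protease that inactivates C3b, had 1 control and 15 imiquimod UMIs and was not compared.

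Clu (clusterin), another fluid-phase inhibitor of the attack complex, was lower in imiquimod skin in the 2 lineages where its control level was highest. Blood endothelium measured 535 CPM (463 to 616) in control and 127 CPM (113 to 142) in imiquimod skin, 4.23-fold (3.52 to 5.09) lower. Keratinocytes measured 78.5 CPM (75.5 to 81.5) in control and 21.3 CPM (20.2 to 22.4) in imiquimod skin, 3.69-fold (3.46 to 3.94) lower. Among keratinocytes Clu was highest in suprabasal cells, at 142 and 71.2 CPM, and these numbered 474 in control and 127 in imiquimod skin. Basal cells measured 27.5 and 10.3 CPM, 2.67-fold (2.27 to 3.14) lower, and upper follicle cells 43.5 and 40.1 CPM, not called. In the 3 shared keratinocyte clusters, taken singly, Clu was called lower in 0 and higher in 1. The latter held 3.73 and 11.4 CPM on 3 control UMIs, and the log2 ratios ran from -1.85 to 1.61. In the UMIs of these clusters pooled, Clu was called lower, as were 8.3% of all genes.

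Cd55, the decay-accelerating factor that dismantles C3 convertases on the cell surface, differed by lineage. Fibroblasts measured 169.7 CPM in control and 180.4 CPM in imiquimod skin, not called. Keratinocytes measured 59.7 CPM (57.2 to 62.4) in control and 3.16 CPM (2.74 to 3.63) in imiquimod skin, 18.9-fold (16.4 to 21.9) lower, which was the largest fall among the members measured in keratinocytes. The imiquimod level was within 3 times the 1.34 CPM that free RNA could give.

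The Cd55 difference was called in basal (66.3 to 2.78 CPM), suprabasal (63.2 to 4.81 CPM) and upper follicle keratinocytes (24.4 to 3.34 CPM). In clusters made up mostly of imiquimod cells, control keratinocytes were also low, on few UMIs, and the cause was not tested. In a cluster of 43 control and 735 imiquimod keratinocytes Cd55 stood at 1.24 and 2.35 CPM, and in one of 45 and 513 at 6.34 and 3.47 CPM, on 1 and 4 control UMIs. In a cluster of 532 and 34 keratinocytes it stood at 63.0 and 3.96 CPM, with 1 imiquimod UMI, and was called lower (log2 -3.99). In the UMIs of these 3 shared clusters pooled, Cd55 was also called lower, as were 8.3% of all genes.

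Mast cells, of which there were 29 and 32, held Cd55 at 390.4 CPM (219 to 644) and 904 CPM (706 to 1139.8), above all lineages compared. Resident macrophages measured 7.93 CPM of Cd55 in control and 83.8 CPM in imiquimod skin, called higher on 2 control UMIs. Cd55 was lower in T and NK cells, 19.0 CPM in control and 7.77 CPM in imiquimod skin, with 19 UMIs in each library. A closely related copy, Cd55b, may share reads with Cd55.

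Cd59a, which caps the attack complex at C8 and C9, had its highest CPM in Schwann cells and in pericytes and smooth muscle. Keratinocytes held 457 of its 2186 control UMIs and 474 of its 1797 imiquimod UMIs, at 13.4 and 7.31 CPM, not called. Schwann cells measured 442 CPM in control and 609 CPM in imiquimod skin, not called. Pericytes and smooth muscle measured 414 CPM in control and 202 CPM in imiquimod skin, 2.05-fold (1.83 to 2.31) lower, and blood endothelium 13.8 CPM in control and 42.4 CPM in imiquimod skin, 3.08-fold (1.28 to 9.68) higher. Cr1l (Crry), the rodent inhibitor of C3 convertases, was measured in 9 lineages, from 39.3 CPM in dendritic cells and in keratinocytes to 141 CPM in blood endothelium in control skin, and was called in none of them. Cd46, a cofactor of factor I, had 83 and 99 UMIs in all cells and was not called in fibroblasts. C1qbp, a mitochondrial protein that also binds C1q, was higher in keratinocytes (87.7 CPM in control and 259 CPM in imiquimod skin, 2.96-fold (2.84 to 3.07)) and blood endothelium (46.9 CPM in control and 136 CPM in imiquimod skin, 2.90-fold (1.78 to 5.04)). By subset it was called higher in basal (140.1 to 379 CPM) and upper follicle keratinocytes. In the 3 shared keratinocyte clusters, taken singly, C1qbp was called in 0, with log2 ratios from -0.30 to 0.73. In their UMIs pooled, 4 of 18 measured members were higher, C1qbp among them, and 6 lower, against 8.04% and 8.3% of all genes. Of the 620 control cells pooled, 532 lay in the same cluster.

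Receptors read the products of the cascade on leukocytes. C5ar1, the receptor of the anaphylatoxin C5a, had 86.8% of its control UMIs in macrophages and monocytes, and 51.2% of its imiquimod UMIs in neutrophils. The imiquimod level was 483 CPM (439 to 531) in neutrophils, 248 CPM in basophils and 108 CPM in macrophages and monocytes. The control level in macrophages and monocytes was 361 CPM (299 to 433). C5ar1 was 3.36-fold (2.68 to 4.19) lower in that gate and 3.54-fold (2.47 to 5.16) lower in the resident gate (440.3 to 124 CPM). The whole-gate call was lost with clusters (log2 -0.42).

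C3ar1, the receptor of C3a, measured 248 CPM in control and 139 CPM in imiquimod skin in macrophages and monocytes, not called, and 301 and 349.7 CPM in the resident gate. Imiquimod basophils held C3ar1 at 173 CPM (123 to 236). No C3ar1 UMI was seen in 274 neutrophils, which allows a level of up to 3.33 CPM on a floor of 3 counts.

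The integrin chains Itgam (CD11b), Itgax (CD11c) and Itgb2 (CD18) form complement receptors 3 and 4, which bind fragments of C3b. Itgam measured 272 CPM in control and 602 CPM in imiquimod skin in macrophages and monocytes, 2.21-fold (1.78 to 2.77) higher, and 254 and 916 CPM in the resident gate, 3.61-fold (2.75 to 4.80) higher. It was also higher in dendritic cells (44.5 CPM in control and 110.4 CPM in imiquimod skin) and in T and NK cells (6.02 CPM in control and 24.1 CPM in imiquimod skin), and imiquimod neutrophils held 379 CPM. Itgax was highest in dendritic cells, at 56.3 CPM in control and 97.5 CPM in imiquimod skin, not called. Itgb2 measured 141 CPM in control and 234 CPM in imiquimod skin in macrophages and monocytes, not called in the whole gate, and 259 CPM in imiquimod neutrophils. In the resident gate Itgb2 was 2.32-fold (1.55 to 3.54) higher. Itgam was counted under a pair of gene IDs that were summed, the second of which had 75 UMIs.

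Within the 40 to 55 resident macrophages per library, 3 of 15 measured members were higher (Itgam, Itgb2 and Cd55) and 5 lower (C4b, Cfp, C6, Cr1l and C5ar1). Over all 4032 genes measured there 6.5% were higher and 9.6% lower. The resident imiquimod cells were also deeper, with a median of 9018 UMIs per cell against 4771, and the part of depth in these differences was not tested.

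Other complement genes were taken from a list of 33, of which 32 were found. In fibroblasts 7 of 11 measured ones were higher and 0 lower, against 11.2% and 4.67% of all genes. In macrophages and monocytes 0 of 6 were higher and 4 lower, against 6.26% and 10.8%. Ptx3, a pentraxin that binds C1q, measured 299 CPM in control and 625 CPM in imiquimod skin in fibroblasts, 2.09-fold (2.06 to 2.13) higher. Fcna, a ficolin that starts the lectin pathway, measured 624 CPM in control and 4.09 CPM in imiquimod skin in macrophages and monocytes, 153-fold (81.3 to 323) lower. Pros1, which encodes protein S and binds the regulator C4BP, was lower in keratinocytes (30.8 CPM in control and 15.1 CPM in imiquimod skin). It was also lower in macrophages and monocytes (122 CPM in control and 31.1 CPM in imiquimod skin, 3.94-fold (2.62 to 5.85)). These macrophage and monocyte values and counts are of the whole gate, whose cells differed between the libraries. It held 55 resident cells and 7 monocytes in control, and 40 and 225 in imiquimod skin. Fcna, Pros1 and the other genes of this list were not measured within the resident gate. Fibroblast Pros1 measured 87.4 CPM in control and 151 CPM in imiquimod skin, not called.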

How the data were processed

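UMI counts per gene and barcode were deposited by the authors as 1 filtered matrix per library, written by Cell Ranger 5.0.0 per the file headers. The submitters' processing notes name Cell Ranger 3.0.2, Seurat 2.0 and mm10, and the annotation and counting settings are not given in the sources used here. Library totals were 123088680 UMIs in control and 144054978 in imiquimod skin. Barcodes needed at least 200 genes and no more than 10% mitochondrial UMIs, and each cell was assigned by 125 lineage markers when its best score was at least 0.1, at least 3 markers were seen and no unrelated lineage scored above 0.6 of it. The markers were listed first, and the score limits and promoter motifs were chosen after the data were seen. Cells with markers of 2 lineages (345 control and 248 imiquimod cells) were left unassigned, and no other doublet was removed in the main counts; Scrublet called 4.10% and 1.29% of cells, and removing them was an alternative.

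UMIs were summed per lineage and library. Counts of at least 20 UMIs over both libraries were compared in lineages of at least 30 cells in each. Intervals are exact (Poisson, conditional binomial, Clopper-Pearson). Free RNA was estimated in each lineage from the markers of the others. Leiden clusters (resolution 1, 30 components, 15 neighbours, 2000 variable genes, members left out) matched the gate in 97.4% of 17455 cells. The clusters were named by the same markers and only cells with both names were compared, so this agreement was partly built in. The share of a cluster's cells in its main gate ran from 55.6% for macrophages and monocytes to 100% for 1 fibroblast cluster. No cluster was named dendritic. All 32 members are named, other complement genes only with at least 100 UMIs. The members and lists were chosen with earlier results of these data known. The counting of calls was tested on simulated data. Tools were Python 3.11.15, numpy 2.4.6, scipy 1.17.1, pandas 2.3.3, scanpy 1.11.5, scikit-learn 1.9.0, leidenalg 0.10.2 and matplotlib 3.10.9.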

Additional observations from a re-analysis of the deposited data

Results flagged for a closer look

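Several members were called higher in one lineage and lower in another, and these differences between lineages were not tested. Values are log2 ratios of imiquimod over control. C1qa was at -1.85 in macrophages and monocytes and 3.82 in dendritic cells, C1qb at -1.42 and 4.53, and C1qc at -1.66 and 3.02 against the floor of 3 counts. Cfp, the properdin gene, was at -1.30 in macrophages and monocytes and 1.30 in dendritic cells. Within the resident macrophage gate C1qa, C1qb and C1qc were not called, and Cfp was still called lower. With clusters in place of the gate, none of these genes was called in macrophages.

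C4b was at -3.92 in macrophages and monocytes, 1.34 in Schwann cells and 1.63 in fibroblasts. Cfb was at -1.86 in macrophages and monocytes and 2.92 in fibroblasts, and C6 at -4.90 and 1.12. C1s1 was at -1.58 in blood endothelium and 1.12 in fibroblasts. Cd59a was at -1.04 in pericytes and smooth muscle and 1.62 in blood endothelium. Some of these calls changed under the alternatives. C6 in fibroblasts turned to -1.79 in the pooled shared clusters. The Cfb call in macrophages was lost within the resident gate and with clusters, and the Schwann cell call of C4b with clusters. The C1s1 call was lost in fibroblasts with size factors and in shared clusters, and in blood endothelium with clusters.

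Cfd appeared outside the lineages compared, in 3 barcodes with adipocyte markers: 969 and 35 UMIs in 2 imiquimod barcodes and 751 UMIs in 1 control barcode.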

How the results depend on the processing

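Of the calls that an alternative could give, the number kept was 45 of 47 without Scrublet doublets, 48 of 48 with at least 500 genes, 45 of 47 with at most 5% mitochondrial UMIs, 45 of 46 with free RNA subtracted, 32 of 32 with at least 100 UMIs, 48 of 48 with no filter on UMIs, 41 of 46 without the top cell of each gene, 39 of 48 with size factors and 29 of 41 with clusters in place of the gate. With clusters, keratinocytes had 3 of 26 members higher and 10 lower (10.2% and 12.4% of all genes), macrophages and monocytes 3 of 23 higher and 4 lower (6.02% and 6.43%), and blood endothelium 5 of 13 higher (10.6%); the log2 ratio of C1ra in keratinocytes turned to -0.0422 and that of Cfp in macrophages to 0.0801. Size factors gave 3 of 28 members higher in fibroblasts (6.93% of all genes) and 3 of 17 in macrophages and monocytes (11.1%). At least 100 UMIs left 3 of 12 members higher and 3 lower in keratinocytes, where fewer genes are measured. The share over all genes at that limit was not computed, so these counts have no background. Shared clusters and the resident gate, alternatives chosen after seeing the data, kept 17 of 27 calls. They gave 4 of 25 members higher and 1 lower in fibroblasts (11.9% and 2.73% of all genes). In macrophages they gave 3 of 15 higher and 5 lower (6.5% and 9.6%). In keratinocytes they gave 4 of 18 higher and 6 lower (8.04% and 8.3% of all genes). C6 in fibroblasts turned to -1.79, and C1qb and C1qc in macrophages to 0.17 and 0.12. The cause of these changes was not tested, except that clusters pool macrophages with dendritic cells, so dendritic cells have no value there. Neutrophils had 6 control cells and were not compared. Members under 20 UMIs in a lineage are limited by depth. No paired analysis was possible because each group is 1 library.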
